A study of Homo sapiens with 6 samples.

Results

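The end of the long arm of human chromosome 19, band 19q13.43, carries a dense cluster of zinc-finger genes, and 43 of them with ZNF symbols are described here in HEK-293T cells with and without THUMPD1. The 43 genes were chosen by symbol and map position with the WT and KO values of these libraries already known, so every difference between WT and KO of a listed gene is given as a description. Where a listed gene is called higher or lower, the call comes from the fit across all genes and supports nothing about the group. They are 43 of the 58870 genes of the count table and lie between the start of ZNF470 and the end of ZNF446 (GRCh38, chr19:56567468-58481230), a span of 1910 kb that stops 136 kb short of the chromosome end. HEK-293T is an immortalized human embryonic kidney line. The WT group was the unedited line (genotype Thumpd+/+, 3 libraries) and the KO group was a THUMPD1 knockout of it (Thumpd-/-, 3 libraries), both grown in DMEM without any further agent. The KO line was grown out from a single sorted cell after CRISPR-Cas9 editing while the WT line was not, so clone and genotype cannot be told apart. THUMPD1 is the adaptor protein that the acetyltransferase NAT10 needs to place N4-acetylcytidine on tRNA, and the comparison asks how the transcriptome differs when it is lost.

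Zinc-finger genes of this kind encode proteins built from tandem C2H2 fingers, short modules that fold around a zinc ion and together read a stretch of DNA. Most of those on chromosome 19 also carry a KRAB domain, which binds the scaffold protein TRIM28 (KAP1) and through it the histone methyltransferase SETDB1 and HP1 proteins, and so places silencing chromatin on transposable elements and on some genes. The clusters grew by tandem duplication, so neighbours are often close relatives, and the gene bodies themselves are known to carry the same silencing marks. TRIM28 itself lies close to ZNF446 at the end of the same arm.

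The 6 libraries held 32225646 to 44099898 counts, so a level of 1 CPM (counts scaled to each library's total) stood for 32.2 to 44.1 counts. THUMPD1 had 3258, 3315 and 3013 counts in WT replicates 1, 2 and 3 and 395, 529 and 353 in the KO replicates, which left 13.6% of the WT level and matched the labels (exact permutation test, two-sided, p = 0.1, the smallest p that 3 against 3 libraries allows). Of 7 genes fixed as markers of the line, 6 were above 1 CPM in all libraries, with LIN28B at 150.0 to 171.0 CPM and PAX8 at or near 0; the list summed to 327 to 332 CPM in WT and 306 to 323 CPM in KO. Single markers differed between the genotypes: NEFM, a neurofilament gene, had 44.7, 28.2 and 33.1 CPM in WT and 6.72, 4.54 and 4.75 CPM in KO, and SALL2 had 73.9 to 81.1 CPM in WT and 62.1 to 65.1 CPM in KO. In the other direction, NEFL had 53.6 to 58.9 CPM in WT and 64.1 to 75.9 CPM in KO. PAX2, LHX1 and LIN28B also had higher levels in KO. The part of these markers in the results was not tested. All 5 markers of mature kidney, among them UMOD and AQP2, had at most 3 counts in every library, so the tissue label kidney names the origin of the line only. The 5 markers of other cell types summed to 13.8 to 18.1 CPM in WT and 9.66 to 13.8 CPM in KO, nearly all of it COL1A1, and PTPRC, PECAM1 and ALB were at or near 0; the part of these genes in the results was not tested. No label says whether the 3 libraries of a genotype came from separate cultures, so the tests measure the spread between these libraries. RNA was bulk, so a change in the number of cells that express a gene and a change per cell cannot be told apart.

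Of the 43 genes, 38 reached 1 CPM in at least 3 libraries and were tested with all other genes, and 5 did not. In KO, 28 of the 38 were called higher and 1 was called lower (limma-voom with quantile normalization, adjusted p below 0.05 over 15088 genes), which is 76.3% of those tested. Across all genes tested 26.7% were called, 13.7% higher and 13.0% lower. The median log2 fold change (KO minus WT) of the 38 genes was 0.43 against 0.02 for all genes tested, and 37 of the 38 values were above 0. Among those above 0, ZNF837 passed the 1 CPM filter through its KO libraries. All KO libraries lay above all WT libraries for 31 of the 38 genes, against 24.5% of all genes, and all KO libraries lay below for 1 gene, against 17.6% of all genes. With the replicate number as a block, 29 of the 38 genes were called, beside 35.1% of all genes. Because the contrast was known when the genes were chosen, nothing is read from these shares.

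**Figure D1:**
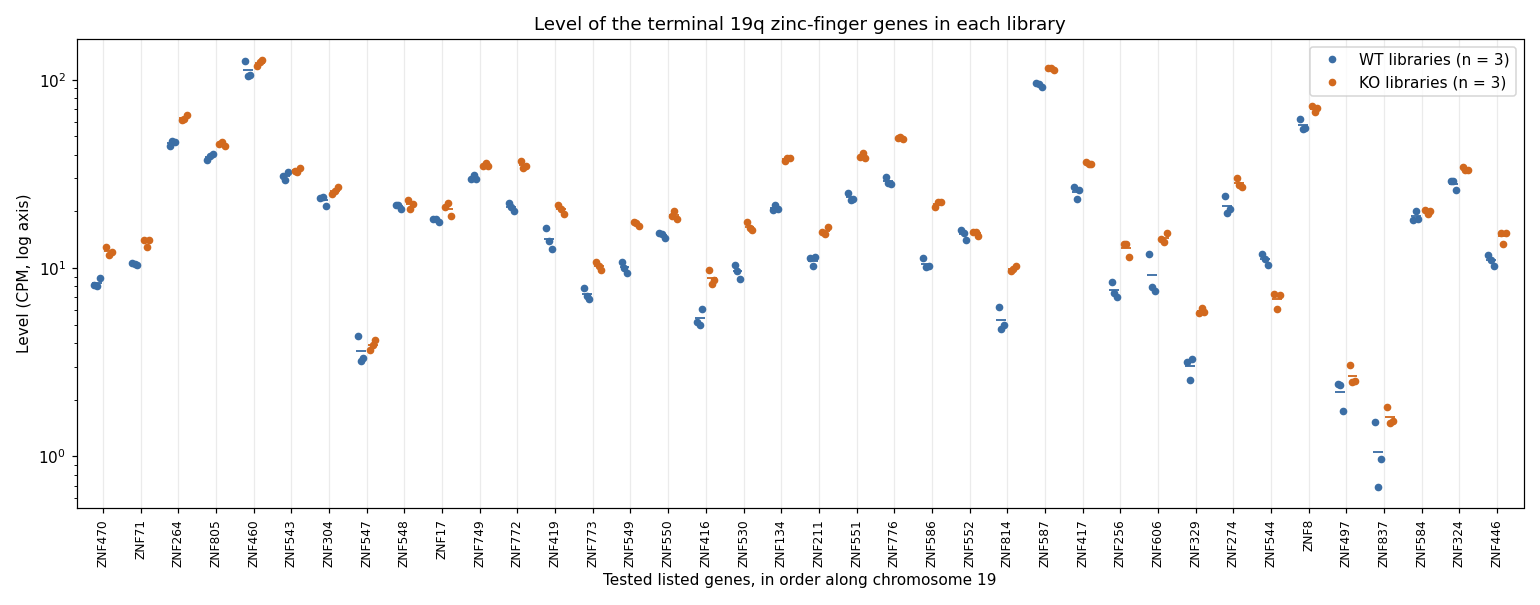
Level of each of the 38 tested listed genes in every library (CPM, log axis), with genes in their order along chromosome 19; points are libraries (3 WT in blue, 3 KO in orange) and short lines are group means. The KO points lie above the WT points for 31 genes and below them for ZNF544.

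The changes were of modest size. ZNF586 was the single gene with a log2 fold change above 1, and the 28 genes called higher ran down to 0.22 for ZNF17. The values of the most changed genes are given first, library by library, then the gene that went the other way, the genes that were not called, and the genes with almost no reads.

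ZNF586 (chr19:57769655-57819939, plus strand, a KRAB gene with 8 finger motifs) had the highest log2 fold change. Its level was 11.3, 10.1 and 10.2 CPM in WT replicates 1, 2 and 3 and 21.1, 22.3 and 22.3 CPM in KO, a log2 fold change of 1.06 (SE 0.07). The KO libraries were close to each other and far above the highest WT library, and the groups did not overlap. Its span holds ZNF552 on the opposite strand, and ZNF552 had 16.0, 15.3 and 14.1 CPM in WT and 15.5, 15.5 and 14.8 CPM in KO (log2 fold change 0.03, SE 0.07). The 2 genes thus shared a stretch of chromosome and had unlike values. Reads where the spans overlap can be told apart only by strand. The library kit kept strand, but the setting used in counting is not given in the sources used here. On the same strand, ZNF587B and ENSG00000268750 overlap the end of the ZNF586 span, and strand cannot separate reads there.

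ZNF329 (chr19:58126248-58155110, minus strand) was a low gene, at 3.16, 2.55 and 3.30 CPM in WT and 5.76, 6.12 and 5.83 CPM in KO, with a log2 fold change of 0.93 (SE 0.12). ZNF134 (chr19:57614233-57624724, plus strand) had 20.4, 21.5 and 20.5 CPM in WT and 37.0, 38.6 and 38.6 CPM in KO, a log2 fold change of 0.88 (SE 0.06). Both kept a wide gap between the groups, and ZNF134 was among the listed genes with no annotated gene overlapping its span. ZNF814 (chr19:57848731-57889074, minus strand), with 23 finger motifs the longest finger array of the 43, had 6.19, 4.72 and 4.97 CPM in WT and 9.62, 9.94 and 10.2 CPM in KO, a log2 fold change of 0.88 (SE 0.10). WT replicate 1 was the highest of its group here. ZNF814 runs across the opposite-strand gene ZNF587, which had 95.7, 95.0 and 92.0 CPM in WT and 116, 116 and 113 CPM in KO.

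The next genes by size of change lay in the middle of the cluster. ZNF530 (chr19:57599885-57612722) had 10.4, 9.65 and 8.77 CPM in WT and 17.5, 16.3 and 15.9 CPM in KO (log2 fold change 0.80, SE 0.08). ZNF549 (chr19:57527325-57557542) had 10.8, 10.0 and 9.42 CPM in WT and 17.6, 17.3 and 16.8 CPM in KO (0.78 on the log2 scale, SE 0.07). In both genes WT replicate 1 was the highest and WT replicate 3 the lowest of its group, and every KO library was well above. ZNF776 (chr19:57746815-57758148), at 30.6, 28.2 and 28.1 CPM in WT and 49.2, 49.9 and 48.5 CPM in KO, had a log2 fold change of 0.77 (SE 0.05). ZNF772 (chr19:57466663-57477570, minus strand) had 22.2, 21.0 and 20.2 CPM in WT and 37.2, 34.1 and 34.9 CPM in KO, a log2 fold change of 0.75 (SE 0.06). These 2 genes had among the smallest errors of the group, at levels above 20 CPM in every library.

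ZNF256 (chr19:57940833-57947706, minus strand), whose protein is known to bind TRIM28, had 8.43, 7.40 and 7.03 CPM in WT and 13.4, 13.5 and 11.5 CPM in KO, a log2 fold change of 0.75 (SE 0.09). ZNF551 (chr19:57681969-57717301) had 24.9, 23.1 and 23.2 CPM in WT and 38.7, 40.6 and 38.5 CPM in KO (log2 fold change 0.73, SE 0.06). Its span holds ZNF154 on the opposite strand, which had no count in any library. On the same strand ENSG00000269026 overlaps both ZNF551 and ZNF776, and strand cannot separate reads there. ZNF416 (chr19:57571566-57578911, minus strand), a regulator known from the activation of fibroblasts, had 5.20, 5.0 and 6.06 CPM in WT and 9.78, 8.23 and 8.63 CPM in KO (log2 fold change 0.68, SE 0.11). For ZNF606 (chr19:57977076-58003349) the WT libraries were more uneven, at 11.9, 7.97 and 7.59 CPM against 14.3, 13.7 and 15.4 CPM in KO (log2 fold change 0.66, SE 0.13). WT replicate 1 was high there, and without it the log2 fold change was 0.84. ZNF606 overlaps ENSG00000176593, a noncoding gene on the opposite strand that was called higher (log2 fold change 0.85, SE 0.14). At the proximal edge, ZNF470 (chr19:56567468-56588911) had 8.09, 7.99 and 8.83 CPM in WT and 12.9, 11.7 and 12.2 CPM in KO (log2 fold change 0.57, SE 0.08).

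The other 15 genes called higher had log2 fold changes of 0.22 to 0.54. They were ZNF419 and ZNF773, ZNF211, ZNF417, ZNF264, ZNF446, ZNF274, ZNF71, ZNF550, ZNF8, ZNF587, ZNF324, ZNF749, ZNF805 and ZNF17. ZNF274, known to recruit SETDB1 to the 3′ ends of zinc-finger genes, had 24.0, 19.7 and 20.7 CPM in WT and 29.9, 27.7 and 26.8 CPM in KO (log2 fold change 0.40, SE 0.07). ZNF8, one of the more abundant members, had 62.2, 54.9 and 55.4 CPM in WT and 72.1, 67.5 and 70.5 CPM in KO (log2 fold change 0.29, SE 0.05). Neither gene's groups overlapped, and in both WT replicate 1 was the highest WT library. The call of ZNF17 (0.22, SE 0.07) was the weakest: it was lost under 11 of 16 other settings, and those of ZNF749 and ZNF805 were lost without KO replicate 2. The remaining 26 of the 29 calls held under every setting tried.

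ZNF544 (chr19:58228594-58277495, plus strand, a KRAB gene with 12 finger motifs) was the one listed gene called lower. It had 11.9, 11.2 and 10.4 CPM in WT and 7.31, 6.04 and 7.23 CPM in KO, a log2 fold change of -0.73 (SE 0.09). Every KO library lay below every WT library, so KO stood at 0.616 of the WT mean. The next listed gene toward the telomere, ZNF8, was called higher, and so was ZNF274 on its other side. ZNF544 overlaps ZNF8-DT, a noncoding gene on the opposite strand that was called higher (log2 fold change 0.53, SE 0.14, limma-voom adjusted p = 0.0154), and ENSG00000283515 on the same strand, which was not (log2 fold change -0.60, SE 0.26, adjusted p = 0.107). The call for ZNF8-DT was not past the threshold under every alternative, where its adjusted p reached 0.0594.

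The 9 tested genes that were not called had log2 fold changes between 0.03 and 0.54. ZNF460 had the highest level of all 43 genes, with 125, 105 and 106 CPM in WT and 118, 124 and 127 CPM in KO (log2 fold change 0.12, SE 0.07). WT replicate 1 lay inside the KO range, and without that library the value was 0.20 and the gene was called. ZNF543 had 30.9, 29.4 and 32.2 CPM in WT and 32.6, 32.4 and 34.1 CPM in KO (log2 fold change 0.10, SE 0.06). ZNF304, known for directing silencing of the INK4-ARF locus in colorectal cancer cells, had 23.6, 23.9 and 21.4 CPM in WT and 24.6, 25.8 and 27.0 CPM in KO (log2 fold change 0.16, SE 0.07). In ZNF543 and ZNF304 the KO libraries lay above the WT libraries, but by little, and without KO replicate 1 ZNF304 was called (0.22). ZNF547, ZNF548, ZNF552 and ZNF584 had log2 fold changes of 0.03 to 0.10 with overlapping groups. ZNF497 and ZNF837 were the lowest tested genes in WT CPM, with mean WT levels of 2.19 CPM and 1.06 CPM. ZNF837 spread from 0.689 to 1.52 CPM over the WT libraries and from 1.50 to 1.83 CPM in KO, so its log2 fold change of 0.54 came with an SE of 0.22. Among its WT libraries only replicate 1 reached 1 CPM, so ZNF837 passed the filter through KO and a value above 0 was favoured. Without WT replicate 2 the value for ZNF837 was 0.31, and without WT replicate 1 it was 0.77 and the gene was called, as it was after correction for GC content and length (0.72, and 0.69 with the replicate block).

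The calls are listed here by stretch along the chromosome. The borders were set by the calls after the values were seen, so the stretches carry no test and no pattern is read from them. Beside them, 13.7% of all genes tested were called higher and 13.0% lower. The 4 proximal genes from ZNF470 to ZNF805 were all called higher, with log2 fold changes of 0.23 to 0.57. The next 5 genes, from ZNF460 to ZNF548 over 123 kb, were all not called, with log2 fold changes of 0.04 to 0.16. ZNF17 and ZNF749, over 35.9 kb, were both called higher, with log2 fold changes of 0.22 and 0.23. From ZNF772 to ZNF329, over 688 kb, 18 of 19 tested genes were called higher, with a median of 0.73. Of the 8 genes from ZNF274 to ZNF446, 4 were called higher, 1 lower and 3 not. Across the 38 genes the value did not follow distance along the arm (Spearman rho 0.12) and went down weakly with WT level per kb (rho -0.35), both given as descriptions over genes that share the same 6 libraries. The WT libraries enter both the level and the log2 fold change, so a negative rho can arise from that alone.

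Levels can be compared between genes only per length, here as WT CPM per kb of exon. ZNF460 was highest at 27.9, followed by ZNF587 at 12.8 and ZNF543 at 8.36. At the other end of the tested genes were ZNF814 at 0.394, ZNF837 at 0.517 and ZNF497 at 0.561. The listed genes that were called higher had a median of 2.49 CPM per kb, and those not called had a median of 3.47. The calls use the same WT libraries, so nothing is read from these medians.

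**Figure D2:**
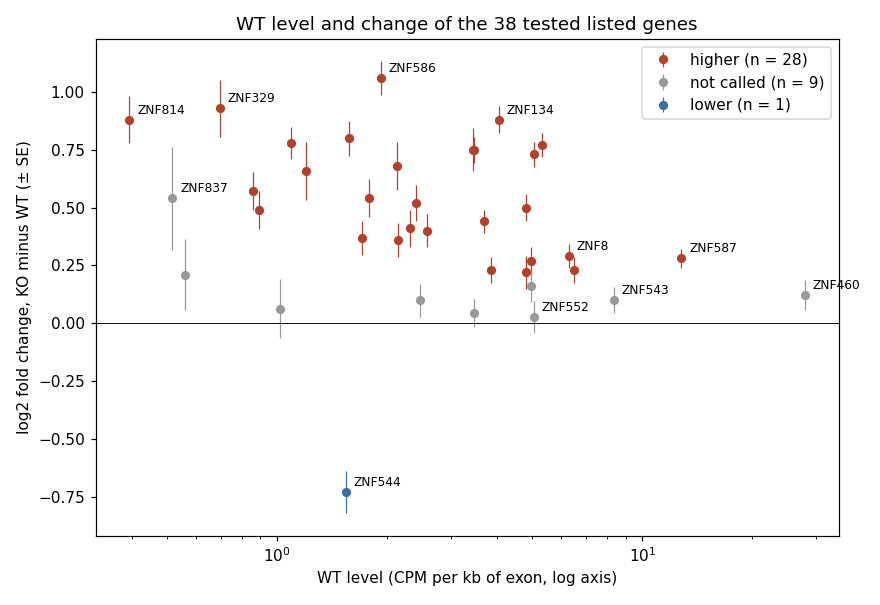
WT level (CPM per kb of exon, log axis) against log2 fold change (KO minus WT, bars are SE) of the 38 tested listed genes, coloured by call. ZNF460 at 27.9 CPM per kb sits far to the right and near 0, while ZNF814 and ZNF329, at 0.394 and 0.696 CPM per kb, sit among the highest changes. The WT libraries enter both axes.

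Close copies share reads, so a division between them is uncertain. Proteins translated from the coding sequences were compared in all 903 pairs, and the median identity was 36.9%. Above 80% of the longer protein there were 2 pairs. ZNF417 and ZNF587, proteins known to bind HERV-K elements, were 98.1% identical, and ZNF264 and ZNF805 were 85.6% identical. ZNF417 had 27.0, 23.3 and 25.9 CPM in WT and 36.4, 35.7 and 35.5 CPM in KO, a log2 fold change of 0.50 (SE 0.06) beside 0.28 (SE 0.04) for ZNF587. Summed, a step chosen after seeing the data, the pair had 118 to 123 CPM in WT and 149 to 152 CPM in KO, a log2 ratio of 0.34. ZNF264 and ZNF805 had log2 fold changes of 0.44 (SE 0.05) and 0.23 (SE 0.05), and their sum had 82.0 to 87.0 CPM in WT and 107 to 109 CPM in KO, a log2 ratio of 0.34. For both pairs the summed KO libraries stayed above the summed WT libraries, while how far each copy moved rests on how RSEM divided the reads. ZNF419 and ZNF773 were the next closest pair, at 79.4% identity, and had log2 fold changes of 0.54 and 0.49.

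Overlap with other annotated genes was common. On the same strand 22 of the 43 genes overlapped another gene and on the opposite strand 22 did, which left 10 genes with no overlap at all. Of those 10, 8 were tested and 7 were called higher, beside 28 of the 38 tested listed genes and 13.7% of all genes, and nothing is read from this count. ZNF134, ZNF530 and ZNF256 are among them.

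In 5 genes the libraries held too few reads to test. ZNF154 and ZNF135 had 0 counts in all 6 libraries. ZNF671 and ZNF132 had 1 count each in WT replicate 1, and ZNF671 had 1 in KO replicate 2 and ZNF132 had 1 in KO replicate 1. These 4 genes were therefore at or below a floor of 3 counts per library in both genotypes, and no fold is given. ZNF154, ZNF671 and ZNF132 are known from tumour studies as genes whose promoters become methylated, and methylation was not measured here. ZNF418 lay between, with 24, 22 and 14 counts in WT and 38, 42 and 22 in KO, which is 0.570, 0.562 and 0.376 CPM against 0.978, 0.952 and 0.683 CPM. In CPM its KO libraries lay above its WT libraries, but it stayed below 1 CPM throughout. ZNF154, inside the span of ZNF551, and ZNF671 are next to each other on the chromosome. ZNF551 and ZNF776, the next gene on the list, were expressed, while ZSCAN1, next to ZNF135, also had 0 counts in all libraries.

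Promoters are shown for the genes with almost no reads and, beside them, for listed genes at both ends of the range of log2 fold change. The RefSeq promoter table (GRCh38.p14) matched 40 of the 43 genes, with 300 bases each, 250 before and 50 after the start. RefSeq starts can differ from those of the gene spans given above, which are from GENCODE. The starts used for ZNF586, ZNF134, ZNF814, ZNF329 and ZNF544 lie inside those spans. For ZNF329 and ZNF544 all of the bases printed below lie inside them too. Promoters at other starts of these genes were not searched separately. The last 100 bases before the start are printed 5′ to 3′ for the 4 genes with almost no reads. Capitals mark the letters ACTTCCGG, whose reverse complement CCGGAAGT is the core that ETS-family factors are known to bind.
ZNF154 (chr19:57709205-57709304, minus strand): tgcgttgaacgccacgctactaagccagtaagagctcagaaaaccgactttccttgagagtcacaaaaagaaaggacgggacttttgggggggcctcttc
ZNF671 (chr19:57727625-57727724, minus strand): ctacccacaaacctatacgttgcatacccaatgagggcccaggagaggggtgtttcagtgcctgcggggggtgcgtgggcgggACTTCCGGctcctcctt
ZNF132 (chr19:58440154-58440253, minus strand): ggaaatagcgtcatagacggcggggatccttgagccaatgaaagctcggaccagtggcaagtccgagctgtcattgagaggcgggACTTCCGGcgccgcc
ZNF135 (chr19:58059139-58059238, plus strand): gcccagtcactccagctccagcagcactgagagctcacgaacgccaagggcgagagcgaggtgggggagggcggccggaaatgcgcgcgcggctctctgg
For comparison, the same 100 bases are printed for 4 of the genes with the highest log2 fold change and for ZNF544, the gene called lower.
ZNF586 (chr19:57769576-57769675, plus strand): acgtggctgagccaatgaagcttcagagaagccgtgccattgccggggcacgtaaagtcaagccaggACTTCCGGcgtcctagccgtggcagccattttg
ZNF814 (chr19:57889038-57889137, minus strand): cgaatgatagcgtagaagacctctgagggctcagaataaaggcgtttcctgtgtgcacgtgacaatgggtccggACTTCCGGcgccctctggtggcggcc
ZNF134 (chr19:57614142-57614241, plus strand): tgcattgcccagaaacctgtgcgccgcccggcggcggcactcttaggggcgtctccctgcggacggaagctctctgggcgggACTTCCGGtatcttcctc
ZNF329 (chr19:58150790-58150889, minus strand): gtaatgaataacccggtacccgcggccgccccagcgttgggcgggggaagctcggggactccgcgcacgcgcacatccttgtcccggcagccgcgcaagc
ZNF544 (chr19:58228814-58228913, plus strand): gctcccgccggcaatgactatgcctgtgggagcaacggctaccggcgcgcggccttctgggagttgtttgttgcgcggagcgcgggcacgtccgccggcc

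The letters ACTTCCGG were picked after these promoters had been read, so their counts are a description. Searched on both strands of the whole 300 bases, with no other motif searched, they were in 22 of 40 listed promoters (55.0%). They were in 12.0% of 175 promoters of other ZNF genes of chromosome 19, in 13.8% of 217 promoters of ZNF genes of other chromosomes and in 4.14% of all 35116 promoters of the table. Among listed genes, 18 of 26 promoters of genes called higher held them, 2 of 8 of those tested and not called, and 2 of the 5 with too few reads (ZNF671 and ZNF132). The RefSeq promoter of ZNF544 did not hold them. The 20 tested genes with the letters had a median log2 fold change of 0.56 (0.06 to 1.06) and the 15 without had 0.23 (-0.73 to 0.93). The RefSeq promoter of ZNF329, the gene with the second highest value, lacks them, and ZNF460 and ZNF547, which were not called, hold them. The letters were picked with the WT and KO values known, and neighbours are often related copies. Nothing is read from the counts by call or from the medians. Whether the letters have any part in the values was not tested.

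The listed promoters held a median of 21 CpG dinucleotides in 300 bases (11 to 35), against 27 in the promoters of all genes tested and 14 in all promoters of the table. At least 20 were found in 27 of 40 listed promoters and in 41.2% of all promoters. The 4 genes with almost no reads had 11 (ZNF671), 14 (ZNF154), 20 (ZNF132) and 32 (ZNF135). So these 4 had CpG counts within the range of the expressed members or just below it. Across the 35 tested genes with a promoter, CpG count and log2 fold change had a Spearman rho of -0.20.

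In the translated proteins a KRAB-A-like pattern was found in 33 of 43. The pattern is strict, and a miss does not show that the domain is absent. It was present in 23 of the 28 genes called higher, in ZNF544 and in 6 of the 9 not called. C2H2 finger motifs numbered 3 (ZNF446) to 23 (ZNF814), with a median of 12, and their number did not follow the log2 fold change (Spearman rho 0.09 over 38 genes). Genes lay on both strands, 28 on the plus and 15 on the minus strand, and 20 of the genes called higher were on the plus strand.

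Zinc-finger genes that are not on the list but lie in the same interval, taken from the start of ZNF470 to the chromosome end, were compared next. Of 13, 7 were tested, and 3 were called higher and 0 lower, at limma-voom adjusted p below 0.05. That is 42.9% called against 26.7% of all genes, of which 13.7% were called higher. An unadjusted limma-voom p below 0.05 was found for 4 of the 7, beside 5922 of all 15088 genes tested. The edgeR test called MZF1 lower, while DESeq2 did not. ZIK1, whose protein is known to bind hnRNP K, had 3.25, 2.88 and 2.58 CPM in WT and 8.21, 7.76 and 6.98 CPM in KO, a log2 fold change of 1.36 (SE 0.11, limma-voom adjusted p = 2.2e-05), above that of any listed gene. It overlaps ZNF416 on the opposite strand, and reads of the shared part can be told apart only by strand. ZSCAN18, a SCAN-domain gene that overlaps ZNF135, had 5.44, 3.42 and 3.70 CPM in WT and 9.08, 7.03 and 9.25 CPM in KO (log2 fold change 0.97, SE 0.15, limma-voom adjusted p = 0.0011). ZNF587B, a copy related to ZNF587, had 54.0, 56.3 and 53.1 CPM in WT and 64.0, 67.5 and 64.3 CPM in KO (log2 fold change 0.26, SE 0.05, limma-voom adjusted p = 0.003). Its identity to listed proteins was not computed, and the division of reads between such copies is uncertain. Summed after seeing the data, ZNF417, ZNF587 and ZNF587B had 171 to 177 CPM in WT and 213 to 219 CPM in KO, a log2 ratio of 0.31. In ZIK1, ZSCAN18 and ZNF587B every KO library was above every WT library, which held for 24.5% of all genes tested.

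The other 4 tested lay at the telomeric end. ZSCAN22, ZNF324B, ZBTB45 and MZF1 had log2 fold changes of 0.06, -0.02, -0.04 and -0.14. For MZF1, the myeloid zinc finger, the limma-voom adjusted p was 0.072, and 0.0438 with the replicate block. ZNF835, ZIM2, PEG3, ZIM3, ZSCAN4 and ZSCAN1 had at most 1 count in any library; PEG3 and ZIM2 are imprinted genes.

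Of the 90 other genes of the interval 27 were tested, and 8 were called higher and 1 lower, which is 33.3% called against 26.7% of all genes. Without WT replicate 3, 5 were called in all. VN1R1, a vomeronasal-type receptor gene in the midst of the cluster, had a log2 fold change of 1.19 (SE 0.18, limma-voom adjusted p = 8.4e-04). Its level was 0.778 to 1.05 CPM in WT and 2.11 to 2.61 CPM in KO. It passed the 1 CPM filter through the KO libraries, so a higher KO value was favoured and its call supports nothing. The count of 8 called higher includes it. ERVK3-1, a gene of retroviral origin next to ZNF8, had a log2 fold change of 0.37 (SE 0.05, limma-voom adjusted p = 4.8e-04). CHMP2A, a subunit of the ESCRT-III membrane-remodelling complex, was lower, with a log2 fold change of -0.57 (SE 0.07, limma-voom adjusted p = 2.8e-04). The median of the 27 was 0.14, against 0.43 for the listed genes and 0.02 for all genes.

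TRIM28 had 502, 472 and 494 CPM in WT and 469, 449 and 503 CPM in KO, with a log2 fold change of -0.07 (SE 0.05, limma-voom adjusted p = 0.375). The groups overlapped, and the sign turned when the GC content and length trend was removed (0.02). Of 17 genes listed as the machinery that KRAB proteins use, 1 was called higher and 3 lower, which is 23.5% called against 26.7% of all genes, and the median log2 fold change was -0.02. SETDB1, the methyltransferase that TRIM28 recruits, was higher, at 65.4, 56.9 and 59.0 CPM in WT and 78.4, 76.0 and 81.6 CPM in KO (log2 fold change 0.37, SE 0.05, limma-voom adjusted p = 7.4e-04). TASOR (-0.21, SE 0.04, limma-voom adjusted p = 0.0056) and MPHOSPH8 (-0.20, SE 0.05, limma-voom adjusted p = 0.0127), both subunits of the HUSH silencing complex, and UHRF1, which guides maintenance DNA methylation (-0.16, SE 0.04, limma-voom adjusted p = 0.0154), were lower by little. The call of MPHOSPH8 was lost without WT replicate 2 (limma-voom adjusted p = 0.0584), and that of UHRF1 without WT replicate 3 (0.0654) or KO replicate 2 (0.0754). Their part in the values of the listed genes was not tested.

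The ZNF genes elsewhere are set beside the listed genes as a description. Of 163 tested ZNF genes on chromosome 19 outside the interval, 91 were called higher and 3 lower, with a median log2 fold change of 0.29, which is 57.7% called against 26.7% of all genes. Of 231 on other chromosomes, 40 were called higher and 21 lower, with a median of 0.04, and these 26.4% called are close to the share over all genes. Without KO replicate 2, 39 of them were called. With the replicate block, 107 of the 163 and 82 of the 231 were called, beside 35.1% of all genes. The listed genes had 28 higher and 1 lower of 38 and a median of 0.43. These groups share the same 6 libraries and 1 KO clone, and the differences between them were not tested.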

How the data were processed

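Total RNA from 6 HEK-293T samples (3 WT, 3 THUMPD1 KO) was ribodepleted and sequenced as stranded paired-end libraries. The authors aligned reads with STAR to hg38 and deposited RSEM expected counts for 58870 genes. The study names GENCODE 46, and versions of STAR and RSEM are not given in the sources used here. Expected counts were used without rounding for limma-voom and CPM, were rounded for edgeR and DESeq2, and are printed rounded. CPM was computed from total counts. Genes that reached 1 CPM in 3 or more of the 6 libraries were quantile normalized and tested by limma-voom (limma 3.58.1, R 4.3.3; two-sided, Benjamini-Hochberg over 15088 genes, threshold 0.05), with genotype as the single term. The study names the filter at 1 CPM, quantile normalization and limma-voom, but no model terms. No deposited column was left unused. The authors' table was the single source of values. The fit was run beforehand on simulated counts with known changes. Those counts had the same spread setting for every gene and no paired libraries, so that run does not vouch for the values here.

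The 43 genes and all other lists were chosen with earlier results of these data known. Named by rule were the 14 called genes of largest change, all genes under the filter, the 3 highest and 3 lowest in WT CPM per kb, pairs over 80% identical, called unlisted zinc-finger and co-repressor genes, THUMPD1 and TRIM28; other names were added after their values were seen. Positions, exon lengths, GC content and proteins (translated canonical coding sequences) came from GENCODE 44 on GRCh38, which matched 99.3% of genes; promoters came from RefSeq. Finger and KRAB patterns were counted in these translations rather than in RefSeq proteins. Protein identity used global alignment (Biopython 1.88).

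Same-numbered WT and KO libraries deviated together over 15088 genes (correlations of deviations from group means 0.27, 0.227 and 0.142; other pairs -0.254 to 0.0902), so the numbers were taken to pair the libraries, from the data and not from the labels. The reported values come from the fit without that pairing, and the replicate block is an alternative. Alternatives were TMM (edgeR 4.0.16) or total library sizes, 3 other filters, edgeR's quasi-likelihood test, DESeq2 1.42.0, the replicate block, GC and length correction with and without the block, and leaving out each library.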

Additional observations from a re-analysis of the deposited data

How the results depend on the processing

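Over 16 alternative settings, the 38 tested genes gave 607 comparisons with the reported values: 580 kept direction and side of the threshold, 13 lost the call, 5 gained one and 9 changed sign. The listed genes called numbered 26 to 30 with 1 library left out, and their median log2 fold change ran from 0.40 to 0.46. With the replicate block 29 were called, the same 29 genes, and of the named genes MZF1 alone changed its call (log2 fold change -0.14). Over all genes 2663 to 4245 were called with 1 library left out, lowest without KO replicate 2; for other genes of the interval the counts were 5 to 11, and for ZNF genes of other chromosomes 39 to 75.

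Signs changed for values near 0. After correction for GC content and length, without and with the replicate block, the log2 fold changes were -0.0026 and -0.00077 for ZNF547, -0.0065 and -0.0057 for ZNF548, 0.037 and 0.029 for ZNF324B, 0.078 and 0.079 for ZBTB45, and 0.016 and 0.016 for TRIM28. ZNF552 was at -0.011 with TMM, with edgeR and with DESeq2. With 1 library left out the ranges were -0.0061 to 0.046 for ZNF552, -0.13 to 0.054 for ZNF324B and -0.11 to 0.015 for ZBTB45. The cause was not tested. The CPM filter kept 5 listed genes out, and without it 41 of the 43 were tested, since ZNF154 and ZNF135 had no counts.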
